A study of Mus musculus with 3 samples.

Results

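Nucleosome positions in mature mouse megakaryocytes (MKs, the cells that release platelets) were read from 1 of the 3 libraries of the series, the input DNA sequenced without immunoprecipitation. All reads of this library were used, reduced to 1 read per position and strand and without chromosome M, which left 21745220 of the 22477167 reads in the file. The other libraries, FLI1 ChIP-seq with 62946422 reads and RUNX1 ChIP-seq with 3973856 reads, came from the same kind of cells and entered only beside the input or to rank promoters, by FLI1 reads unless RUNX1 is named. All 3 are wild-type cells of the CD1 strain, taken from fetal liver of embryonic day 15 per the labels and grown for 5 days with thrombopoietin. Other lineages were depleted with antibodies against TER119, GR1 and CD11b, and the cells were pelleted through albumin gradients. The labels also list CD41, which MKs carry, among the antibodies for isolating lineages, and the methods do not. The methods pooled DNA of 3 or more precipitates per library without saying how many animals or cultures these came from. The study's methods give a different embryonic day. They describe control chromatin digested with micrococcal nuclease (MNase) next to sonicated chromatin for the transcription factors (TFs), whereas the labels name sonication only. Each group is 1 library, so no difference between groups was tested and every interval of a ratio or share below is a 95% interval for counting error alone. Input reads are 34 bp long and reads of the FLI1 and RUNX1 libraries 50 bp. The part of read length in comparisons between the libraries was not tested. Input DNA carries no expression, and the labelled cell type was not checked with markers.

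A nucleosome is a stretch of DNA wrapped around a core of histones, and the linker between neighbours is free. MNase cuts linkers far faster than wrapped DNA, so the ends of sequenced fragments mark the edges of nucleosomes. Active promoters usually carry a gap just upstream of the transcription start site (TSS) and a well-placed first nucleosome inside the gene, called +1, followed by a regular array. The DNA-binding protein CTCF arranges nucleosomes on both sides of its sites in the same way. FLI1, an ETS-family TF that recognises the core GGAA, is required for MK maturation.

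The bases at the ends of the reads differed between the input and the ChIP libraries. Over chromosomes 1, 10 and 19, the base just before the first sequenced base was A or T in 82.1% of 3284091 input reads, against 55.7% inside the fragment. The same base was A or T in 53.0% of FLI1 reads and 58.9% of RUNX1 reads, both close to the 57.3% and 58.0% inside their fragments. The 4 bases across the cut that were most enriched over the genome were TATG (4.61-fold), ATAG (4.61-fold) and TAAG (4.48-fold), and the most depleted was CGCG (0.0700-fold). In the FLI1 library CGCG was instead the most enriched, at 1.82-fold. A preference for cutting beside A and T is a known property of MNase.

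The dinucleotides AA, AT, TA and TT rose and fell along the input fragments in step with the turn of the DNA helix. Their maxima lay 16, 27, 37, 47 and 59 bp after the first base, then at 87, 98, 109, 118, 130 and 140 bp, with a gap in the series near the middle of a nucleosome-sized fragment. The fitted period was 10.25 bp with an amplitude of 0.509 percentage points around a mean of 28.0%. In the FLI1 library the best fit had an amplitude of 0.0831 points and in RUNX1 0.0568 points.

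**Figure D1:**
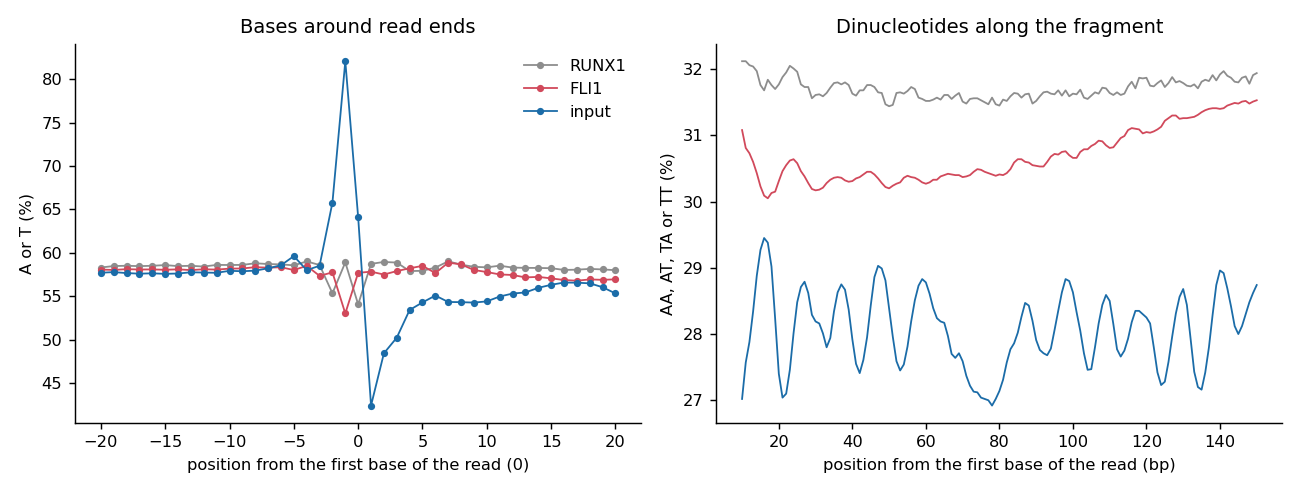
Left, share of A or T (%) at each position around the first sequenced base (0) in the input, FLI1 and RUNX1 libraries. Right, share of AA, AT, TA or TT (%) from 10 to 150 bp along the fragment. The input line peaks at 82.1% just before the cut and oscillates with a period of 10.25 bp, whereas the lines of the ChIP libraries stay nearly flat.

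Distances between read ends gave the size of the protected DNA. From plus-strand ends to minus-strand ends downstream, input pairs were most frequent at 158 bp, with 90553 pairs at this distance, 1.62 times the mean from 400 to 1000 bp. FLI1 pairs peaked at 126 bp, at 1.76 times their mean. RUNX1 pairs peaked at 159 bp on a broad plateau, at 2.91 times their mean. The height of the mode was thus not particular to the input. The input curve was ridged, with separate maxima at 129, 139, 149, 159 and 167 bp and further ones down to 17 bp. The maxima from 139 bp on were outside the range used for the period and swing. Below them, the ridges had a period of 10.2 ± 0.066 bp (slope ± SE over 11 maxima) and a swing of 7.49% of the local mean, against 0.237% for FLI1. The swing of the RUNX1 curve, 1.76%, came from irregular maxima 8.38 bp apart. Thinned to 3974009 reads, about the RUNX1 depth, the input still had its mode at 158 bp and a swing of 8.14%.

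On 1 strand, the distance between ends gives the nucleosome repeat length, that is, the wrapped DNA plus 1 linker. Input distances had maxima at 180, 379, 579 and 776 bp, which gave a repeat of 198.8 ± 0.42 bp (slope ± SE, 95% interval of the regression 197 to 200.6 bp, 4 maxima). A cosine fitted from 280 to 1000 bp gave 196 bp with an amplitude of 1.52%. The amplitude counts all pairs of reads, also those of unrelated nucleosomes, and is not a share of positioned nucleosomes. The FLI1 distances had no maximum and a best fit of 0.189% at the longest period allowed. The RUNX1 maxima, at 373, 491, 598, 712 and 815 bp, were 110.5 ± 1.4 bp apart. The cosine fitted to RUNX1 nevertheless had a period of 206 bp and an amplitude of 1.02%, nearer to the input than to FLI1. Thinned to about the RUNX1 depth, the input gave 196 bp and 1.50%. By chromosome, the input's cosine period lay between 191 bp on chromosome 10 and 204.5 bp on chromosome 9 over the 19 autosomes and X. From the maxima, the repeat by chromosome ran from 121.1 bp on chromosome 17, where 7 maxima were found, to 203.1 bp on chromosome 7. It was 150.8 bp on chromosome 3 (6 maxima) and 181.4 bp on chromosome 12, and at least 192.5 bp on the others. Chromosome Y held 11655 reads and gave no usable period.

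**Figure D2:**
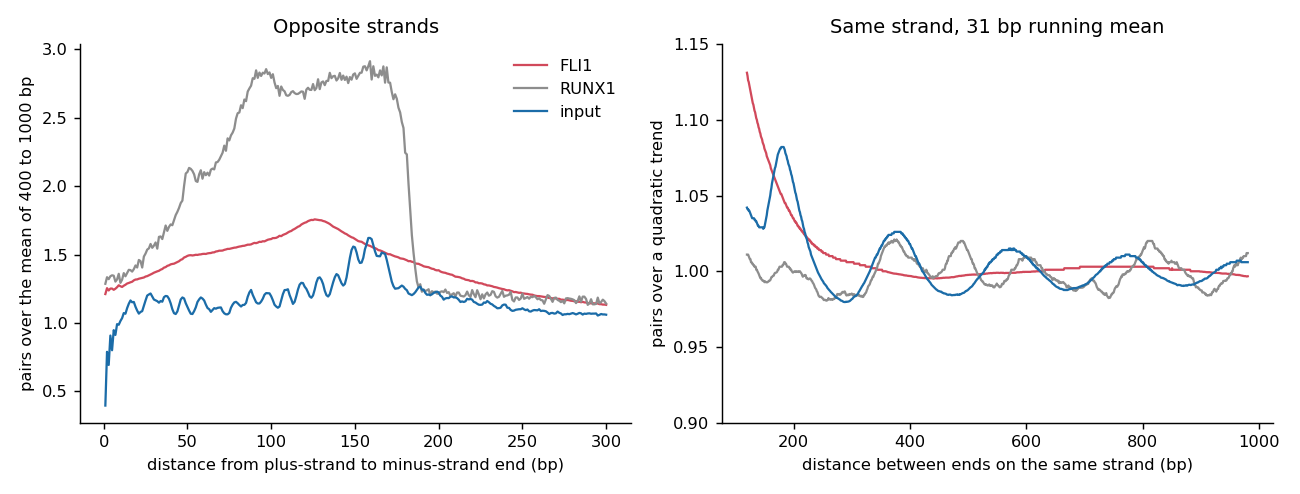
Left, pairs of read ends on opposite strands by distance (bp), over the mean of 400 to 1000 bp, for the 3 libraries. Right, pairs on the same strand by distance, over a quadratic trend and smoothed over 31 bp. The input has ridges up to a mode at 158 bp and 4 same-strand maxima from 180 to 776 bp, and FLI1 has neither.

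The amplitude of the repeat differed across the genome. With the period and phase of the whole genome held fixed, the amplitude was 1.65% in regions over 20 kb from any protein-coding gene. In gene bodies (from 2 kb inside the TSS to the gene end) it was 1.80%, 1.67%, 1.26% and 0.814% for genes in the lowest to the highest quartile of FLI1 reads within 1 kb of the TSS. The lowest quartile exceeded the highest on 19 of 20 chromosomes. Chromosome values ran from 1.28% to 2.20% in the lowest quartile, with a median of 1.80%, and from 0.185% to 1.38% in the highest, with a median of 0.895%. The quartiles differed little in GC content of the gene bodies (42.2% to 43.3%) and somewhat in depth (8.57 to 10.7 reads per kb). The part of these in the difference was not tested. The period itself, fitted in each set alone, was 193.5, 197, 196 and 197 bp from the lowest to the highest quartile and 194 bp away from genes. Within 2 kb of TSSs the amplitude was 2.53% and the period 204 bp, but the chromosomes ran from 1.06% to 8.98% with a median of 1.83%. Within 2 kb of distal CTCF motif sites the amplitude was 2.34% (0.00299% to 3.90% by chromosome, median 2.40%), and the best period, 151.5 bp, lay near the shortest one allowed, on 261890 reads.

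At the 22339 TSSs of protein-coding genes, fragment centres (read ends moved 80 bp inwards) were fewer just upstream than at the flanks, which lie 1.5 to 2 kb away on both sides. The 200 bp before the TSS held 40522 centres, 0.912 times the flank rate (0.902 to 0.922), and this ratio was below 1 on 19 of 20 chromosomes (0.839 to 1.01). With repeated positions kept it was 1.10, above 1, a change seen mainly in the highest FLI1 quartile (last section). CpG-rich promoters (9871), defined further on, stood at 0.802 (0.789 to 0.815), whereas the other 12468 stood at 1.01 (0.997 to 1.02). Adjusted for fragment GC, as described further on, the order of the classes turned, with 1.03 (1.014 to 1.048) for CpG-rich and 0.931 (0.918 to 0.944) for other promoters. The 200 bp after the TSS stood at 0.919 (0.909 to 0.929) for all TSSs as counted and at 1.04 (1.028 to 1.05) adjusted for GC. The +1 nucleosome had its highest point at +130 bp, at 1.10 times the flank rate, and the nucleosome upstream of the gap had its own at -178 bp, at 1.05. The lowest points were 0.812 at +33 bp and, in the linker behind +1, 0.747 at +235 bp. The former depended on the direction of the reads, with the minimum at -66 bp (0.806) for reads along the gene and at +38 bp (0.762) for opposite reads. Further maxima followed from +319 to +884 bp, and the 5 maxima were 189 ± 1.6 bp apart (slope ± SE). The average promoter held 1.81 centres in the 200 bp upstream (median 1, highest 48), so the map describes classes of promoters and not single ones.

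Set against the flanks, the gap was not deeper in the highest quartile of FLI1 reads than in the lowest. From the lowest to the highest FLI1 quartile the 200 bp upstream stood at 0.827, 0.939, 0.868 and 0.990 times the flank rate, and the highest over the lowest gave 1.20 (1.16 to 1.24), that is, more centres in this window, which also takes in part of the upstream nucleosome. The order was not steady, since the third quartile was lower than the second, and its profile had the lowest minimum of the 4, 0.692 at +38 bp. The contrast between nucleosomes and linkers was larger in the upper quartiles. The +1 maximum had heights of 0.924, 1.07, 1.14 and 1.32 from the lowest to the highest quartile. The upstream nucleosome (-240 to -161 bp) stood at 0.850, 0.948, 1.07 and 1.205, and the lowest point of the linker behind +1 at 0.770, 0.893, 0.662 and 0.647. From -150 to -51 bp, inside the gap, the lowest quartile stood at 0.809 and the highest at 0.914. Set beside their upstream nucleosomes, at 0.850 and 1.205, the gap was thus shallow in the lowest quartile and deeper in the highest. In both upper quartiles the +1 maximum lay close to the all-gene position, at +137 and +131 bp, with maxima after it 186 ± 2.1 and 184 ± 4.0 bp apart. In both lower quartiles it lay at +72 and +91 bp, with maxima 158.5 ± 6.2 and 208 ± 6.7 bp apart. The ranges within counting error of the highest point overlap, from 43 to 130 bp in the lowest quartile and from 115 to 139 bp in the highest. These height and linker measures were chosen after the profiles were seen.

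Sequence class and depth moved with the quartiles, and their part in the differences was not tested. The ranking used FLI1 reads as counted, not divided by the input. Its window of 1 kb holds the upstream window and +1 but not the flanks. Any gain or loss of reads that the libraries share there enters both the ranking and the ratios, and its part was not tested. CpG-rich promoters (GC of at least 0.5 and CpG at 0.6 or more of the expected frequency within 500 bp) made up 15.8%, 20.7%, 59.96% and 80.2% of the quartiles. The flanks held 42.1, 59.5, 61.0 and 59.6 centres per bp, summed over the promoters of each quartile. Input centres more than 5 kb from TSSs were most frequent where the 161 bp around them held 55 to 60% GC, at 1.67 times the mean, and fell to 0.541 of it at 65 to 70% and 0.148 at 20 to 25%. The 200 bp upstream of the TSS averaged 49.2% GC in the lowest quartile and 60.4% in the highest. When each window was set against the count its GC predicts, the gap at all TSSs shrank to 0.964 (0.954 to 0.974), and the quartiles gave 0.826, 0.953, 0.993 and 1.07. The +1 nucleosome (85 to 165 bp) then stood at 0.797 (0.768 to 0.828), 1.01, 1.40 and 1.60 (1.56 to 1.64). The lowest point of the linker behind it stood at 0.739, 0.923, 0.889 and 0.857. Against the flanks, the lowest quartile thus had the deepest linker once adjusted, in contrast to the counts. Its adjusted +1 maximum was only 0.838, against 1.78 in the highest quartile, so its step from +1 to the linker was the smaller. The adjusted profile of the highest quartile dipped to 0.910 at -90 bp and had an additional maximum of 1.17 at -30 bp, inside the gap.

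Within each sequence class the highest quartile also had more centres upstream than the lowest. Ranked among CpG-rich promoters alone, the quartiles stood at 0.513, 0.806, 0.921 and 0.986 upstream, and among all other promoters at 0.927, 0.983, 1.06 and 1.03. The ratio of highest to lowest was 1.92 (1.83 to 2.02) for the former and 1.11 (1.07 to 1.17) for the latter. GC content differed within the CpG-rich class too. With the quartiles of all promoters, its 200 bp upstream averaged 67.3% GC in the lowest (885 promoters) and 62.1% in the highest (4480), and stood at 0.413 and 0.966 as counted and 0.706 and 1.09 adjusted. The height at +1 was 0.532 in the lowest and 1.28 in the highest quartile of the CpG-rich promoters, and 1.05 and 1.51 in the others. Ranked by RUNX1 reads, a library with few reads per promoter, the ratio was 1.01 (0.978 to 1.04).

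**Figure D3:**
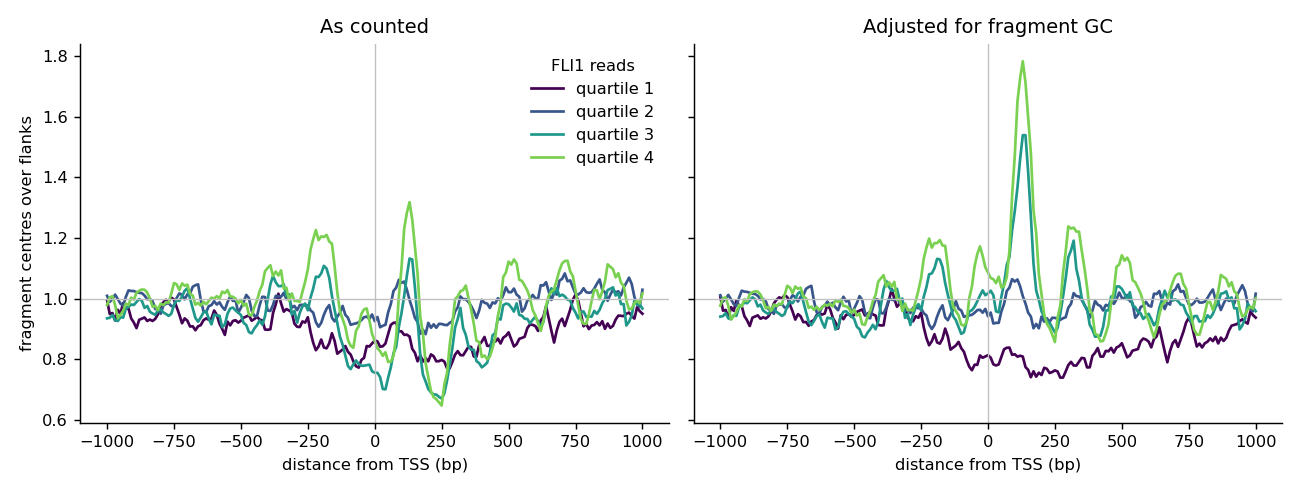
Fragment centres around TSSs (bp, gene direction to the right) over the flank rate, by quartile of FLI1 reads within 1 kb, as counted (left) and adjusted for fragment GC (right). The +1 nucleosome near +130 bp and the linker near +250 bp stand out in quartiles 3 and 4, with +1 heights of 1.14 and 1.32 as counted.

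CTCF motif sites carried long arrays. Over 6092 sites of the CTCF consensus more than 2 kb from a TSS, centres peaked at -142 and +135 bp at 2.68 and 2.02 times the flank rate, with the motif read in its own direction. The next maxima were at -320, -500 and -680 bp and at +315, +488 and +665 bp, and 10 were called on each side. The outermost, at -1815 and +1798 bp, stood at only 1.04 and 1.06 and lay within the flanks that set the scale. Outer maxima also lay further apart than the inner ones given here. The spacing fitted over all 10 was 185 ± 1.3 bp on both sides. The genome-wide repeat of 198.8 bp comes from pairs of reads and this spacing from profiles, so the values were not compared. Between the first nucleosomes the profile dipped to 0.489 at -80 bp and 0.640 at +80 bp and returned to 1.01 at -40 bp and 1.19 at +40 bp. Reads of the 2 directions differed here. Over all 6562 sites the lowest point was 0.476 at -48 bp for reads along the motif and 0.425 at -83 bp for opposite reads. The window of 50 bp to each side of the motif stood at 1.03 (1.01 to 1.06) for these sites as counted and at 0.926 (0.904 to 0.948) adjusted for GC, so its direction depended on the adjustment. The upstream nucleosome (-170 to -111 bp) stood above 1 on 20 of 20 chromosomes (1 to 19 and X, 1.84 to 2.52).

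At the 6092 distal sites, within 10 bp of the motif centre, FLI1 reads stood at 2.77 times their flanks (2.71 to 2.83) and RUNX1 reads at 1.54 (1.38 to 1.72), where the input stood at 0.943 (0.892 to 0.996). In the linker from 200 to 260 bp the input fell to 0.558 (0.535 to 0.582), whereas FLI1 was at 1.09 and RUNX1 at 1.08. At single sites the input counts are small. The flanking windows of 60 bp held 1.47 centres upstream and 1.20 downstream on average, and 42.6% of the 5915 sites counted singly had at least 1 centre in both. The following 3 sites are printed because they had the most centres in both flanking windows with none in the linkers behind them, among distal sites with 20 to 60 flanking centres, and they were chosen after their values were seen. Capitals mark the letters that match the consensus, and each is read in the direction of the motif, on the plus strand of mm9.
chr1:36794329-36794379, outside gene records, 6 and 7 centres: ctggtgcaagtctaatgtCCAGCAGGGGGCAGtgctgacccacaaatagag
chr15:85308199-85308249, outside gene records, 7 and 6 centres: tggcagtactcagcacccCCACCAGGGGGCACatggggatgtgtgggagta
chr4:43938846-43938896, in an intron of Reck, 5 and 7 centres: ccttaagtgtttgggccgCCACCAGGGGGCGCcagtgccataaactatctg

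**Figure D4:**
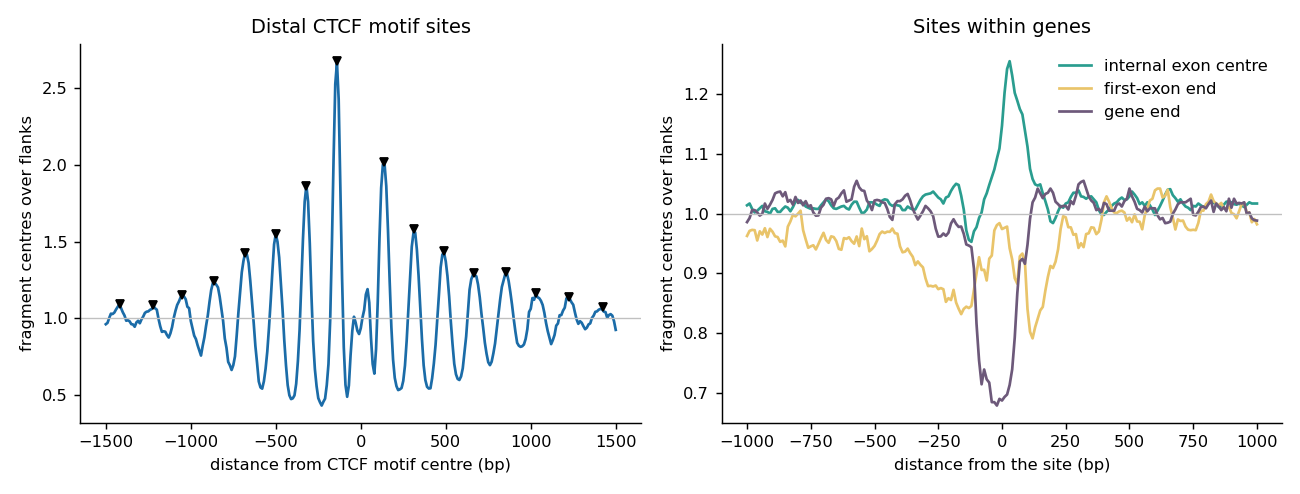
Left, input fragment centres around distal CTCF motif sites (bp, over flanks), with triangles at the maxima. Right, the same around the centres of internal exons, first-exon ends and gene ends. The CTCF profile reaches 2.68 at -142 bp, with a fitted spacing of 185 bp between maxima, and gene ends fall to 0.676.

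Other landmarks within genes had features of their own, and arrays were not looked for there. At gene ends the profile fell to 0.676 at -19 bp (minimum at -19 bp for reads along the gene and -83 bp for opposite reads), and the 200 bp beyond the end stood at 0.918 (0.908 to 0.927), below 1 on 20 of 20 chromosomes (1 to 19 and X). The region within 50 bp of gene ends held 39.8% GC against 45.4% at the flanks, and this region stood at 0.702 as counted and 0.888 (0.874 to 0.902) adjusted for GC. The 200 bp beyond the end came to 0.987 (0.977 to 0.998) once adjusted. Internal exons of 100 to 200 bp carried a maximum of 1.26 at 27 bp past their centre. Their central 101 bp stood at 1.16 times the flanks, where GC alone predicts 1.14, and at 1.01 (1.004 to 1.016) once adjusted. At the ends of first exons the 150 bp on the exon side exceeded the intron side by a small margin, 1.02 (1.01 to 1.04), with 13 of 20 chromosomes above 1. With repeated positions kept the ratio turned to 0.646. For the 5116 first exons of at least 300 bp the ratio was 0.987 (0.955 to 1.02).

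Sites that could place nucleosomes away from genes were also read. Around ETS motifs (CCGGAAGT on either strand, more than 2 kb from TSSs) the 1374 sites with the most FLI1 reads, at least 12 within 100 bp, had maxima of 1.11 at -153 bp and 1.23 at +118 bp, small beside those at CTCF motifs. The range within counting error of the downstream maximum ran from +3 to +145 bp. The 50 bp to each side of these motifs stood at 1.135 (1.08 to 1.19), so the maxima were not set apart from the motif itself. The highest point within 250 bp downstream of the remaining 12371 sites was 1.09. Whether these heights differ beyond counting error was not tested. At runs of at least 10 A, centres fell to 0.302 at -69 bp. This minimum moved with the direction of the read, to 0.192 at -69 bp for reads opposite to the run and 0.342 at +67 bp for reads along it. Before the inward shift of 80 bp, both minima belong to reads that start beside the run and read across it. The fall was therefore not read as the placement of nucleosomes. Within 10 bp of the centre of 1 in 20 of these runs (27505), the input stood at 0.337 (0.321 to 0.353) of its flanks, FLI1 at 0.739 and RUNX1 at 0.786. Within 50 bp of the same centres the input stood at 0.401 as counted and at 0.577 (0.565 to 0.589) adjusted for GC. Reads of the input were 34 bp long and those of the ChIP libraries 50 bp. The ability to map reads of either length there was not tested.

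Promoters of MK genes were looked at as a group and singly. Of the 28 listed platelet and MK genes, 25% had CpG-rich promoters, against 44.2% of all, and their median was 210 FLI1 reads, against 70. Together they held 69 centres in the 200 bp upstream, 1.09 times the flanks (0.829 to 1.42). Among covered promoters (at least 20 centres between 0.5 and 2 kb, both sides added), 22.6% of all 18492 held 0 centres upstream, and 3 of 27 listed genes did (11.1%, exact interval 2.35% to 29.2%). The interval of the list includes the share over all. The 682 genes raised in mature MKs that matched the annotation gave 0.856 (0.806 to 0.909), with 23.7% of 642 covered promoters at 0 centres. The study chose this list from expression in its own cells, and only its promoters are used here.

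The 3 listed promoters at 0 were those of Itgb3, the beta chain of the platelet fibrinogen receptor, P2ry1, an ADP receptor of platelets, and Gfi1b, a repressor needed for MK and red cell development. Itgb3 had 221 FLI1 reads and 46 flanking centres, P2ry1 155 and 35, and Gfi1b 129 and 32. A count of 0 allows up to 3 centres, and the median of the list is 2. At the other end, Gp6, the collagen receptor of platelets, held 8 centres with 182 FLI1 reads, and Itga2b, the alpha chain of the fibrinogen receptor, held 7 with 615 FLI1 reads, the most of the list. Nfe2, which encodes the p45 subunit of NF-E2, held 5 with 547 FLI1 reads, and Selp, the adhesion receptor P-selectin, held 5 with 65. The 3 promoters at 0 centres lay on both sides of the list's median of 210 FLI1 reads. Counts of centres this small do not order single promoters. The remaining genes of the list held from 1 to 5 centres upstream and from 38 to 549 FLI1 reads. Over the list the +1 window held 0 to 4 centres, with a median of 1.

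The upstream sequences of 4 listed genes are shown, those with the most FLI1 reads among the listed promoters with 0 or 1 centres. Each is the 200 bases that end 1 base before the TSS, 5′ to 3′ in the direction of the gene, and capitals mark the ETS core GGAA or its complement TTCC. Pf4 encodes a chemokine of platelet granules, Myh9 the heavy chain of non-muscle myosin, Thbs1 the adhesive protein thrombospondin and Runx1 the TF itself. Each held 1 centre in this stretch, with 549, 387, 301 and 274 FLI1 reads within 1 kb. Myh9, with 16 flanking centres, was not among the covered promoters. The stretch of Pf4 also holds a run of over 10 T and that of Runx1 a run of over 10 A, a kind of sequence where centres were few genome-wide.
Pf4, mm9 chr5:91201261-91201460, plus strand: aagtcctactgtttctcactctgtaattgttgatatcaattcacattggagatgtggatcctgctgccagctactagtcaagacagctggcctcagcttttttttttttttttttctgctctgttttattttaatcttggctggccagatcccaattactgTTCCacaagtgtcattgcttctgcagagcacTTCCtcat
Myh9, mm9 chr15:77672606-77672805, minus strand: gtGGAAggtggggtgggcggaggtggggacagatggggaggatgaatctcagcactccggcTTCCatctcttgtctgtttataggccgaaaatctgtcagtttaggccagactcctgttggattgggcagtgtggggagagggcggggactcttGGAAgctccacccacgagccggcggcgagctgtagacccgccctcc
Thbs1, mm9 chr2:117937412-117937611, plus strand: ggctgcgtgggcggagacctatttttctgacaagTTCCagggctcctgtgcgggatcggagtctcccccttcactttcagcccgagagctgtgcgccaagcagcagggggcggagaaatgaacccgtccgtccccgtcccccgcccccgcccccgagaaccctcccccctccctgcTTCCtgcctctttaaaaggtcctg
Runx1, mm9 chr16:92826312-92826511, minus strand: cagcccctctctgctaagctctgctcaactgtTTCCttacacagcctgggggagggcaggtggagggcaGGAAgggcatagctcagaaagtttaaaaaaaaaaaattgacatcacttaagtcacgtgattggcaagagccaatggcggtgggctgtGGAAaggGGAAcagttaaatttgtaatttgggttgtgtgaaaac

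These stretches held 2, 3, 2 and 4 cores, and a core is common, being present in 88.5% of the same windows of all genes. The longer motif CCGGAAGT, which contains the core, was in 3.17% of all windows on either strand, in 0.609% of the lowest FLI1 quartile and in 9.96% of the highest. It was in 0 of the 28 listed promoters, and so was the shorter CCGGAA, found in 12.5% of all. A match or its absence is a description of the letters, and binding at these sites was not read from it.

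Among the covered promoters outside the list that held 0 centres upstream, 5 had the most FLI1 reads. These were BC031781 (769 FLI1 reads, 41 flanking centres), Lyl1, which encodes a TF related to TAL1 (688 and 43), Ccdc77 (654 and 24), the sodium and proton exchanger Slc9a8 (609 and 36) and the ubiquitin ligase Trip12 (572 and 23). The 5 promoters of the highest quartile with the most centres were Sfi1 (48 centres), Gm10716 (42), Gm10106 (36), Gm10800 (35) and 4931408C20Rik (27). These held 533, 165, 114, 342 and 142 centres at their flanks, against 16 to 48 for the listed MK genes. Their promoters held 115, 131, 142, 912 and 28 RUNX1 reads, against 1 to 32 for those genes. All but 4931408C20Rik exceeded the listed genes in RUNX1 reads as well.

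Gene groups with other roles served for comparison. Their values, like those of the MK genes above, are as counted, without the GC adjustment that turned the order of the promoter classes. HOX and neuronal promoters were 50% CpG-rich each, and the part of base composition in the group values was not tested. Proteasome promoters (41, of which 80.5% were CpG-rich) stood at 0.899 (0.702 to 1.14) upstream, against 0.912 for all genes. From -150 to -51 bp alone they stood at 0.592, against 0.873 for all genes. In this window neuronal genes were lower, at 0.568, and the other groups ran from 0.667 (HOX genes) to 1.17 (clustered histone genes). The groups have no intervals in this window, and neuronal genes held only 23 centres in the whole 200 bp, so their order was not read. Over the +1 nucleosome proteasome promoters stood at 1.84 (1.41 to 2.38), against 1.03 for all genes. Promoters of genes named Rpl or Rps (144), shown as ribosomal proteins, had 0.884 (0.768 to 1.01) upstream and 0.869 (0.701 to 1.07) at +1. This group was taken by name, and its members were not checked singly. HOX genes (40), developmental regulators with few FLI1 reads (median 56), were at 0.667 (0.495 to 0.883) upstream and 0.794 (0.517 to 1.17) at +1. Neuronal genes (18) were at 0.653 (0.404 to 1.01). Olfactory receptors (1113, none of them CpG-rich) stood at 0.994 (0.940 to 1.05) upstream, 1.39 (1.29 to 1.49) at +1 and 1.30 in the linker behind it, and vomeronasal receptors (322) were at 1.14 (1.00 to 1.28) upstream. Keratins (51) and clustered histone genes (67) stood at 0.865 (0.7003 to 1.06) and 1.05 (0.852 to 1.29), intervals that include 1.

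**Figure D5:**
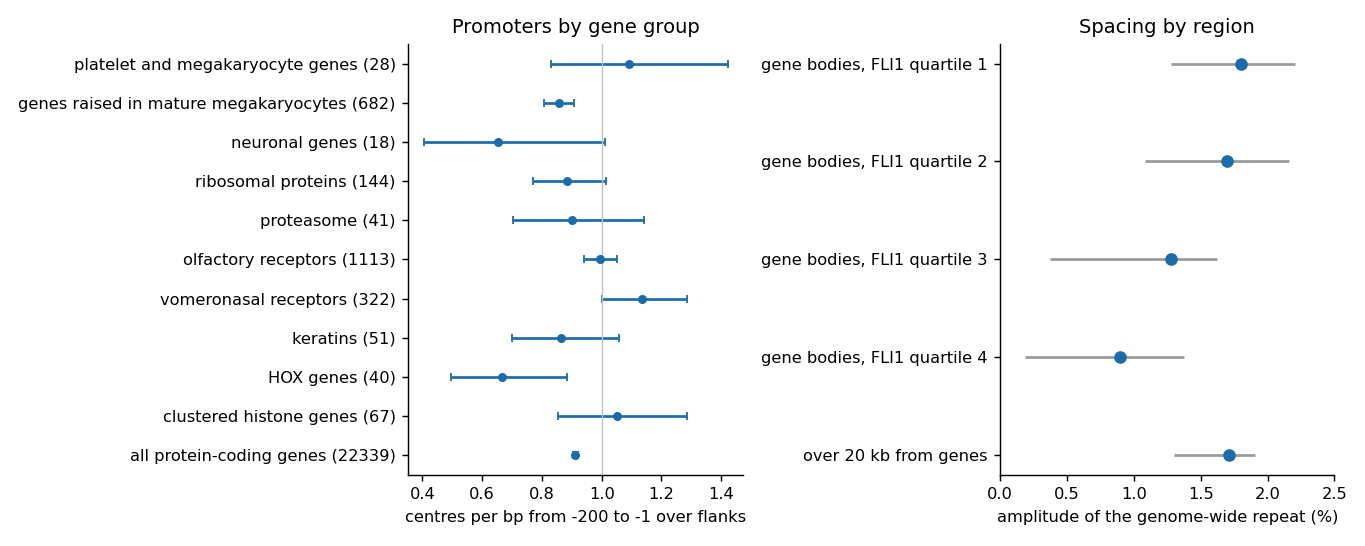
Left, fragment centres in the 200 bp upstream of the TSS over the flanks for each gene group (number of TSSs in brackets), with 95% intervals for counting error. Right, amplitude (%) of the repeat in phase with the whole genome, as the median (point) and range (line) over 20 chromosomes. The amplitude medians fall from 1.80% in FLI1 quartile 1 to 0.895% in quartile 4.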

How the data were processed

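The authors used Bowtie with build mm9 (aligner version not given in the sources used here), and the files they deposited list where and on which strand every read mapped. Their deposited files hold no counts or other unit, so each count was made here by counting read positions. SICER 1.1 and MACS 1.4, also listed in the submitters' processing notes, were not used here. The ChIP files hold each position once. In the input 3.24% of reads repeat a position, and these repeats were removed. Read ends were moved 80 bp inwards to estimate fragment centres. Gene models were GENCODE M1 on the same build, with 1 TSS per gene. Profiles were smoothed over 31 bp and divided by the flank rate. Ratios have exact conditional binomial intervals, which cover counting error only, and the ratio of quartiles a normal interval on the log scale. Without replicates, no test between groups was made. For the GC adjustment, the rate of centres per GC content of 161 bp, taken over 5 kb from TSSs, gave the expected count of each window. Motifs were searched on both strands of mm9, and the CTCF consensus was written with ambiguity letters. Genes named came from the 28 listed MK genes (1 of these genes is not reported singly here), from 5 promoters with 0 centres and the most FLI1 reads and from 5 of the highest quartile with the most centres. The members and lists were chosen with earlier results of these data known. Spacing and depletion estimates were also run on simulated reads, and the outcome is not given here. Alternatives covered shift, smoothing, repeats, dense bins (the top 1% of 1 kb bins), windows, neighbouring genes, sequence class and FLI1 depth. A cosine fit, thinning of the input, the narrow window by quartile and the GC adjustment were added after seeing the data. Python 3.11.15, NumPy 2.4.6, SciPy 1.17.1 and pandas 2.3.3 were used.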

Additional observations from a re-analysis of the deposited data

Results flagged for a closer look

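Repeated reads of the input, used above only where repeated positions were kept, piled up on chromosome 2. The 4779 bp from the Gm10801 to the Gm10800 promoter (mm9 chr2:98502512-98507290) held 161022 input reads at 1553 positions, 0.716% of the file and 21.9% of all its repeated reads. The position read most often held 17067 reads, 118 bp downstream of the Gm10801 TSS. It is listed because these reads are outside the main counts, and it has no control, since the ChIP files hold each position once.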

How the results depend on the processing

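Of 52 alternatives over 8 results, 26 left the value within its interval or range, 22 moved it and 4 took it to the other side of 1. With repeated positions kept, the repeat became 121.5 bp (165 bp by the cosine), the mode 156 bp, the TSS gap 1.10, the +1 position 103 bp, the FLI1 quartile ratio 1.95, the first-exon ratio 0.646 and the gene end 0.982. Adjusting for fragment GC, an alternative chosen after seeing the data, gave 0.964 for the TSS gap, 1.29 for the quartile ratio, 1.06 for the first-exon ratio, 0.987 for the gene end and 0.926 for the CTCF window. A cosine in place of maxima gave a repeat of 196 bp, also when thinned to the RUNX1 depth, and was likewise added later. The TSS gap was 0.926 without dense bins, 0.873 from -150 to -51 bp and 0.885 over every transcript. The quartile ratio was 1.31 with FLI1 reads within 500 bp, 1.11 with FLI1 thinned, 1.92 for CpG-rich and 1.11 for other promoters, 1.01 by RUNX1 and 1.13 from -150 to -51 bp (added later). First exons of at least 300 bp gave 0.987, and a shift of 73 bp gave 1.09 at CTCF. Beyond the values given here the causes were not tested. Depth limits single promoters, at 1.81 centres on average. Mappability of 34 bp reads was not computed. No paired analysis was possible because each group has 1 library.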
